A study of Homo sapiens with 12 samples.

Results

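Expression of 9 genes was examined in the human multiple myeloma cell line MM.1S after exposure to filanesib with or without pomalidomide and dexamethasone. The genes, EBLN2, CCDC18, PARPBP, TROAP, C18orf54, XRCC4, PLK2, KRT37 and GCSAM, were picked from 14884 named genes because the average of 2 differences, F minus Control and FPD minus PD, was large in either direction. They were picked as genes outside classic mitosis lists, but published lists were not checked for them here. The average of the 2 differences is called the average filanesib difference below. Because it chose the genes, their values in it are given as a description, without a test.

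RNA of 12 samples was hybridised to 1 Affymetrix array each, with 3 arrays in each of 4 groups, all after 24 h. FPD cells received 1 nM filanesib, 500 nM pomalidomide and 10 nM dexamethasone. F cells received 1 nM filanesib, and their treatment label adds 10 nM dexamethasone, which the title and the shared protocol do not mention. PD cells received 500 nM pomalidomide with 10 nM dexamethasone, and Control cells received vehicle. MM.1S is 1 cell line. The labels do not state separate cultures within a group, so a p-value here sets differences against array-to-array spread that may be technical.

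Array medians lay between 4.23 and 4.27 on the log2 scale and the median of the gene means was 5.39. The number of arrays limits the precision of all values, and arrays of a group correlated at r = 0.988 to 0.992. DDIT4, a gene that glucocorticoids induce, averaged 10.61 ± 0.02 in FPD, 5.96 ± 0.11 in F, 10.45 ± 0.01 in PD and 5.99 ± 0.08 in Control (log2, SD, n = 3 each), so it did not mark dexamethasone in F. KIF11, the gene of the filanesib target, had an average filanesib difference of 0.28 (limma adjusted p = 0.132). The 7 measured plasma cell markers had mean levels of 5.54 to 11.17, against 4.10 to 5.88 in 5 T cell markers, 2.87 to 4.46 in 5 myeloid markers and 2.57 to 7.59 in 5 stromal and epithelial markers.

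Filanesib blocks the kinesin KIF11, a motor that pushes the poles of the mitotic spindle apart, and cells treated with such inhibitors are known to be held in mitosis with a single-poled spindle. Many genes of late cell cycle phases are transcribed in a wave that peaks in G2 and mitosis, and short promoter elements, the cell cycle homology region TTTGAA and the CCAAT box, are known to take part in that wave. In bulk samples, more cells in one phase and more RNA per cell cannot be told apart.

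Members with a higher average filanesib difference were 6 of the 9, and 4 of these have a promoter in the RefSeq promoter table (GRCh38.p14). Their sequences are shown because all 4 were higher in the contrast that chose them and carry 1 or both elements. Each runs 5′ to 3′ on the gene's strand from 250 bases before to 50 bases after a transcription start, and capitals mark TTTGAA or CCAAT read on either strand (ATTGG on the opposite one).
PARPBP, chr12:102119933-102120232, + strand: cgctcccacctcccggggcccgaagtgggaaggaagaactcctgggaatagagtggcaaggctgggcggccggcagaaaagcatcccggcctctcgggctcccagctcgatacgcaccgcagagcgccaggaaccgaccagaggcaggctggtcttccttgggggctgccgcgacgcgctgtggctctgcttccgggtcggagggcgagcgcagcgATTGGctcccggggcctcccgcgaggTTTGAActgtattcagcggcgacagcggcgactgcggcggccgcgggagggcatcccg
C18orf54, chr18:54357667-54357966, + strand: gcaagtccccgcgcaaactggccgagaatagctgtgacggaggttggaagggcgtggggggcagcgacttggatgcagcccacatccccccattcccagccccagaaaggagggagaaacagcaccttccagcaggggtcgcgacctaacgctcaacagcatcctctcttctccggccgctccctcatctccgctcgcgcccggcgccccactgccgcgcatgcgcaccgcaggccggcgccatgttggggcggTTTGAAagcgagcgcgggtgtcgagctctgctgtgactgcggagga
CCDC18, chr1:93180466-93180765, + strand: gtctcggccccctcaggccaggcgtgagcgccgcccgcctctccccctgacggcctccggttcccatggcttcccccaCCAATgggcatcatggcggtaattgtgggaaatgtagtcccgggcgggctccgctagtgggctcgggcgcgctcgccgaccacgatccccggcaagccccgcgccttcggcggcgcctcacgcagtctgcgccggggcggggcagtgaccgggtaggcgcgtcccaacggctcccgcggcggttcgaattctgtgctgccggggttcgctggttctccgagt
XRCC4, chr5:83077297-83077596, + strand: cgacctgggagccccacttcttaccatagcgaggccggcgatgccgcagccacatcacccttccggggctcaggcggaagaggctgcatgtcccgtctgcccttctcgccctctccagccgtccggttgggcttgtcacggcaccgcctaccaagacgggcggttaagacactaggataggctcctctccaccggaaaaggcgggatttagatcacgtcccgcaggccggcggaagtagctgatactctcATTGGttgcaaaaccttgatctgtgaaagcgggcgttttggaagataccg

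In PARPBP, TTTGAA begins 8 bases and the reversed CCAAT 34 bases before the start shown, and 204 and 230 bases before the second start that the table lists. In C18orf54, TTTGAA begins at base 5 after the start shown and at base 16 after the second. CCDC18 has CCAAT 172 bases before the start shown and 180 before its second, and XRCC4 a reversed CCAAT at its start. TTTGAA occurred in 2 of the 7 members with a promoter entry, against 18.2% of all 27305 genes of the table and 24 of 34 genes (70.6%) of a mitosis and spindle list. CCAAT occurred in 3 of the 7 members, against 39.7% of all genes and 28 of the 34 mitosis genes (82.4%). TTTAAA, another form of the homology region, occurred in none of the 7 members, in 14.5% of all genes and in 15 of the 34 mitosis genes. The p53 half-site, searched as the consensus of that name, occurred in PLK2 alone among the members, 132 bases before its start, and in 8.06% of all genes. Both strands were searched, the motifs do not overlap one another in the windows shown, and a match is a description of the letters only. Over so few members, nothing is read from these shares.

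In the ranking by size of the average filanesib difference, EBLN2 was at place 3 of all named genes, CCDC18 at 8, PARPBP at 9, TROAP at 11, KRT37 at 15, C18orf54 at 17, XRCC4 at 21 and GCSAM at 31. Among these places stood 23 other genes, of which 10 were microRNA loci and 9 coded for proteins, so the 9 genes are not simply the leading ones. PLK2 was at place 104, behind 95 non-members in all. Just inside, PLK2 had a value of -0.36, and the next genes outside were MAD2L1, CENPK and GEN1 at 0.36 each. The first 2 places belonged to MIR4441 (1.16) and MIR644A (0.94).

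**Figure D1:**
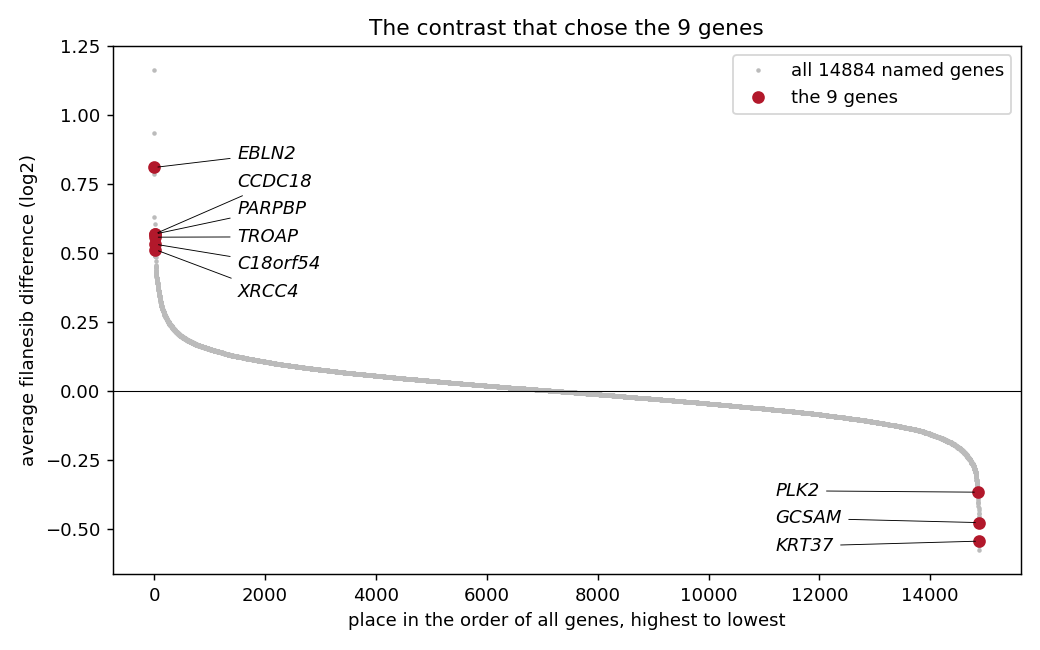
Average filanesib difference (log2, vertical axis) of all 14884 named genes in order from highest to lowest (horizontal axis, grey points), with the 9 genes in red. EBLN2 stands at 0.81, the other higher members lie between 0.51 and 0.57, and the lower members between -0.36 and -0.54.

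Over all genes, 64 (0.43%) passed the limma test for the average filanesib difference, 57 (0.383%) of them higher and 7 (0.047%) lower. All 9 members were among the 64, as their choice by this contrast allows, and nothing is read from that count. In F against Control the share of genes called was 0.00672%, with no member among them. In FPD against PD it was 0.0336%, with 2 members called. These contrasts entered the choice too.

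Among the higher members, TROAP and CCDC18 are microtubule and centrosome genes. TROAP encodes tastin, a microtubule-associated protein needed for an ordered spindle. TROAP (transcript cluster 16750761) measured 8.57, 8.52 and 8.44 in FPD arrays, against 7.98, 7.81 and 8.08 in PD arrays. The F arrays gave 8.36, 8.35 and 8.09, against 7.66, 7.80 and 7.63 in Control arrays. Neither pair of groups overlapped, and the levels ran in the order FPD, F, PD, Control, although the lowest F array (8.09) barely cleared the highest PD array (8.08). The difference was 0.55 in FPD against PD and 0.57 in F against Control (log2, 1.46-fold and 1.48-fold, SE 0.10 each). In the other 8 genes the difference beside pomalidomide and dexamethasone was the greater in size.

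CCDC18 (transcript cluster 16667206) encodes a coiled-coil protein found at centriolar satellites, the granules around the centrosome. Values of CCDC18 were 6.50, 6.38 and 6.60 in FPD arrays, against 6.12, 5.59 and 5.84 in PD arrays. F arrays gave 6.40, 6.46 and 6.95, against 5.94, 6.17 and 6.21 in Control arrays. Groups with and without filanesib were apart in both pairs, while F overlapped FPD and Control overlapped PD, in the order F, FPD, Control, PD. The average filanesib difference was 0.57 (1.48-fold, SE 0.11), and 1 array, F replicate 3, stood above its companions.

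PARPBP and XRCC4 are genes of DNA repair. PARPBP encodes PARI, a PCNA-binding protein that restrains homologous recombination. For PARPBP (transcript cluster 16755928) the FPD arrays gave 7.21, 7.32 and 7.28, against 6.70, 6.59 and 6.52 in PD arrays. F arrays had 7.35, 7.55 and 7.36, against 6.74, 7.06 and 7.02 in Control arrays. All 4 groups were separate, in the order F, FPD, Control, PD, and the average filanesib difference was 0.57 (1.48-fold, SE 0.07).

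XRCC4 is the scaffold that holds DNA ligase IV in non-homologous end joining. The XRCC4 values (transcript cluster 16986895) were 7.37, 7.37 and 7.58 in FPD arrays, against 7.07, 6.75 and 6.79 in PD arrays. In F arrays they were 7.29, 7.68 and 7.71, against 7.07, 7.38 and 6.88 in Control arrays. FPD and PD did not overlap, whereas F replicate 1 lay below Control replicate 2. The means ran in the order F, FPD, Control, PD, and each neighbouring pair overlapped. The average filanesib difference was 0.51 (1.43-fold, SE 0.10).

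EBLN2 and C18orf54 have less settled roles. EBLN2 derives from an ancient insertion of a bornavirus nucleoprotein gene into the primate genome, and C18orf54 is also called LAS2, after a lung adenoma susceptibility locus of the mouse. EBLN2 (transcript cluster 16942681) measured 5.81, 5.53 and 5.84 in FPD arrays, against 4.83, 4.61 and 4.55 in PD arrays. F arrays spread widely at 5.12, 5.47 and 5.87, against 4.79, 5.00 and 4.98 in Control arrays. Filanesib groups were apart from their partners in both pairs, in the order FPD, F, Control, PD, while FPD overlapped F and Control overlapped PD. The EBLN2 difference of 1.06 in FPD against PD (2.09-fold, SE 0.15) was the highest among the 9 genes, and 0.56 was found in F against Control (1.48-fold, SE 0.15). The mean level of EBLN2, 5.20, lay below the median gene mean, and no detection call sets it apart from background.

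C18orf54 (transcript cluster 16852445) reached 7.28, 7.16 and 7.20 in FPD arrays, against 6.84, 6.61 and 6.33 in PD arrays. F arrays had 6.78, 6.96 and 7.14, against 6.43, 6.59 and 6.50 in Control arrays. The order was FPD, F, PD, Control, where FPD was above F without overlap, F and PD overlapped and PD overlapped Control. The average filanesib difference was 0.53 (1.45-fold, SE 0.09).

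The 3 lower members have no common role. PLK2 is a polo-like kinase known for centriole duplication and as a target gene of p53. PLK2 (transcript cluster 16996433) measured 4.69, 4.70 and 4.87 in FPD arrays, against 5.18, 5.57 and 5.30 in PD arrays. F arrays gave 4.92, 4.92 and 5.00, against 5.08, 5.19 and 4.98 in Control arrays. F replicate 3 lay above Control replicate 3, so PLK2 was apart only beside pomalidomide and dexamethasone, with differences of -0.59 in FPD against PD and -0.14 in F against Control (SE 0.11 each). The order was PD, Control, F, FPD, and the mean level of 5.03 was below the median gene mean.

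KRT37 encodes a type I hair keratin, a filament protein of hair follicles. KRT37 (transcript cluster 16844684) had 5.04, 4.72 and 4.60 in FPD arrays, against 5.72, 5.32 and 5.52 in PD arrays. The F arrays gave 4.94, 4.85 and 5.07, against 5.65, 5.15 and 5.12 in Control arrays. Both pairs were apart, but the F and Control arrays by a narrow gap only. The order was PD, Control, F, FPD, and the mean level of 5.14 was below the median gene mean. The average filanesib difference was -0.54 (1.46-fold lower, SE 0.11).

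GCSAM is an adaptor protein of germinal centre B cells that restrains their motility. GCSAM (transcript cluster 16957312) measured 6.65, 6.90 and 6.72 in FPD arrays, against 7.49, 7.16 and 7.49 in PD arrays. F arrays had 6.53, 6.59 and 6.44, against 6.91, 6.91 and 6.73 in Control arrays. The groups ran in the order PD, Control, FPD, F, where Control and FPD overlapped and all other neighbours were apart. Its average filanesib difference was -0.48 (1.39-fold lower, SE 0.08).

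**Figure D2:**
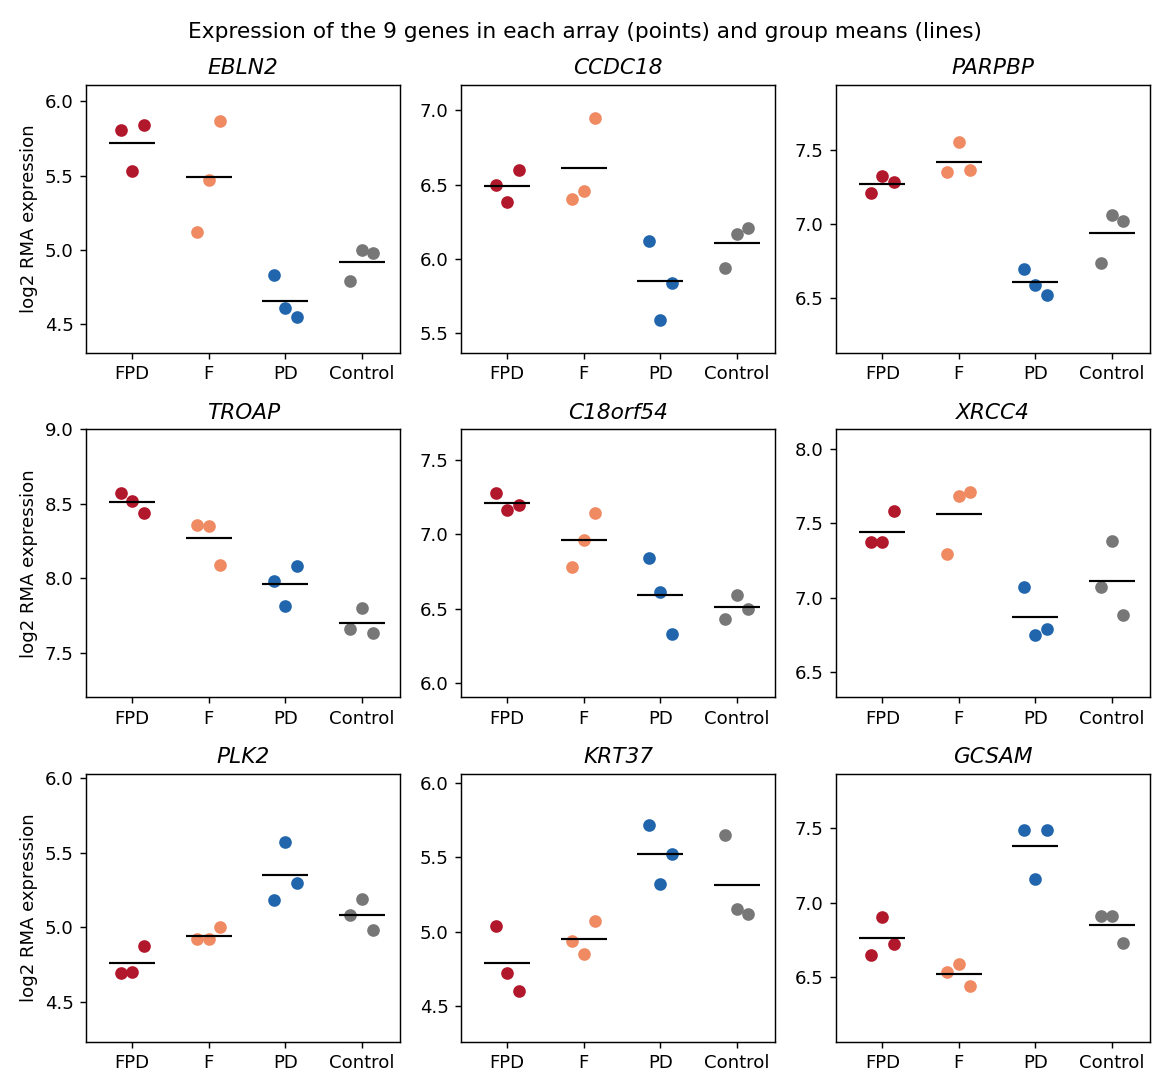
Log2 RMA expression (vertical axis, spanning the same 1.8 log2 units in each panel) of the 9 genes in the FPD, F, PD and Control arrays (points, 3 per group), with group means as lines. In all 9 genes FPD arrays are separate from PD arrays, and F arrays overlap Control arrays in XRCC4 and PLK2 only.

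The arrays did not overlap in FPD against PD for 9 of the 9 genes, where 14.4% of all genes were apart, and in F against Control for 7 of 9, where 10.0% of all genes were apart. These counts rest on the contrasts that chose the genes.

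Pomalidomide plus dexamethasone gave measures the choice did not use. With equal group sizes, the average of PD minus Control and FPD minus F is uncorrelated with the average filanesib difference, and so is the departure from additivity. For the average of PD minus Control and FPD minus F, 3 of the 9 genes passed the limma test, against 23.5% of all genes. GCSAM rose by 0.38 (1.30-fold, 95% interval 0.22 to 0.55, limma adjusted p = 0.0014) and TROAP by 0.25 (1.19-fold, 0.10 to 0.41, limma adjusted p = 0.0167). PARPBP fell by 0.24 on the log2 scale (interval -0.40 to -0.09, limma adjusted p = 0.021). Those 2 higher genes compare with 11.3% of all genes higher, and the 1 lower gene with 12.2% lower, so the share of members called was near that of all genes.

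PARPBP no longer passed once Control replicate 2 was left out (limma adjusted p = 0.0595), nor without F replicate 2 (0.0624), PD replicate 3 (0.0512) or FPD replicate 1 (0.054). C18orf54, at 0.17 (limma adjusted p = 0.203), passed without PD replicate 3 only, at 0.23 (0.0476). CCDC18 (-0.19, interval -0.41 to 0.04) and XRCC4 (-0.18, interval -0.39 to 0.03) did not pass the test. EBLN2 (-0.01, interval -0.24 to 0.22), PLK2 (0.04, -0.12 to 0.20) and KRT37 (0.03, -0.20 to 0.25) lay nearest to 0.

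The components of this average share no arrays. In PD against Control, 15.5% of all genes were called, and of the members GCSAM rose by 0.53 (limma adjusted p = 0.00292) and PARPBP fell by 0.34 (0.0354). TROAP was at 0.26 (limma adjusted p = 0.103). In FPD against F, 14.1% of all genes were called and none of the 9 genes, with TROAP at 0.24 (limma adjusted p = 0.144) and GCSAM at 0.24 (0.196), both of which had an unadjusted p under 0.05. FPD arrays were apart from F arrays in 5 of the 9 genes, against 30.3% of all genes, and PD arrays from Control arrays in 3 of 9, against 29.0%. Where F received dexamethasone as its label says, FPD minus F holds pomalidomide alone. The difference of F minus Control would then hold dexamethasone beside filanesib, and so would the average filanesib difference and the departure from additivity.

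Set beside the filanesib values, which chose the genes, TROAP was positive in both averages (0.56 and 0.25), PARPBP positive for filanesib (0.57) and negative for pomalidomide plus dexamethasone (-0.24), and GCSAM the reverse (-0.48 and 0.38). In GCSAM the FPD mean of 6.76 ± 0.13 lay between 7.38 ± 0.19 in PD and 6.52 ± 0.08 in F, beside 6.85 ± 0.10 in Control (SD, n = 3 each).

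The departure from additivity, FPD minus PD less F minus Control, asks whether filanesib acted differently beside pomalidomide and dexamethasone. No member and none of all genes (0.0%) passed the limma test for it, while 2 members and 833 of all genes had an unadjusted p under 0.05, where 744.2 would be expected by chance. PLK2 had -0.45 (interval -0.77 to -0.14, limma adjusted p = 0.888) and EBLN2 0.50 (0.04 to 0.96, limma adjusted p = 0.888). The other intervals include 0, with KRT37 at -0.38 (-0.83 to 0.06), GCSAM at -0.30 (-0.63 to 0.03) and TROAP at -0.02 (-0.33 to 0.29). In 8 of the 9 genes the filanesib difference was larger in size beside pomalidomide and dexamethasone, with a median excess of 0.18. The same held for 45 of the 64 called genes (70.3%, median 0.10) and 53.4% of all genes (median 0.02).

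**Figure D3:**
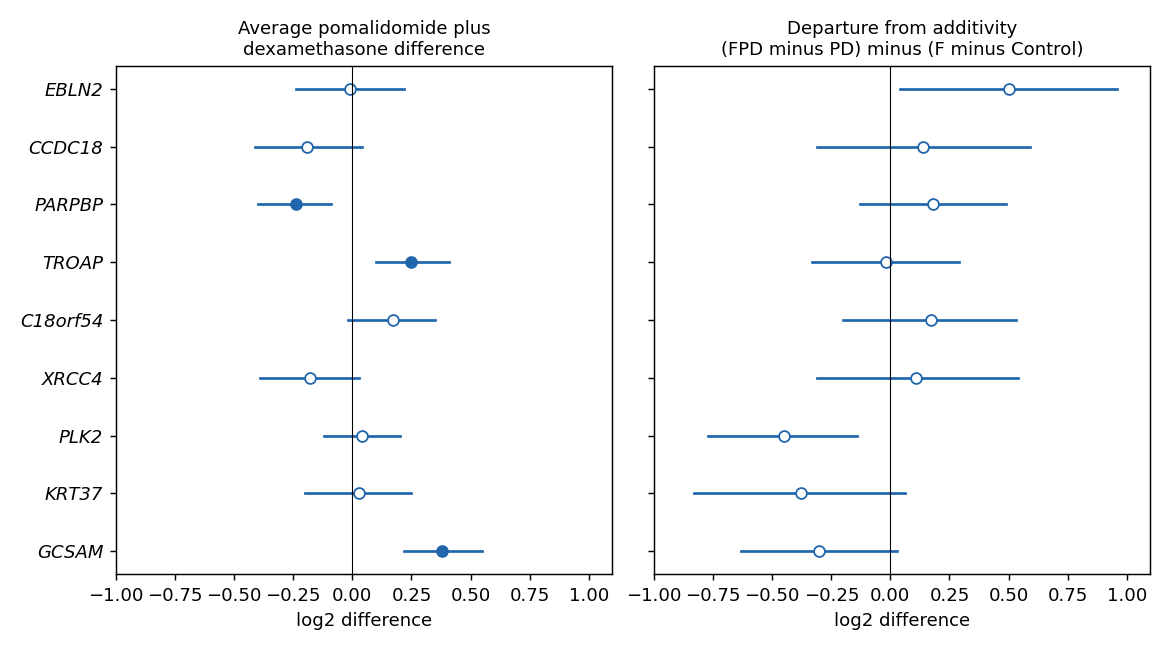
Log2 differences of the 9 genes in the average of FPD minus F and PD minus Control (left) and in the departure from additivity (right), as points with 95% intervals. Filled points passed the limma test (PARPBP, TROAP and GCSAM on the left, none on the right).

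Deviations of arrays from their group means were not used in the choice. A choice by size of difference can still favour genes with a wide spread, or genes whose arrays deviate together. The spreads and correlations below are therefore not free of the choice. Taken as deviations from the group means, the values of EBLN2, CCDC18, C18orf54 and XRCC4 moved together over the 12 arrays, with r of 0.55 to 0.84 in their 6 pairs. Those 4 genes were picked after the values were seen, and 7.22% of all pairs of genes reached an r of at least 0.55. TROAP had r of -0.47 to 0.01 with them and PARPBP 0.24 to 0.42. The points share arrays, normalization and 8 degrees of freedom, and no test was made. F replicate 3 deviated upwards in all 4 genes, by 0.38 in EBLN2 and 0.35 in CCDC18. The spread within groups was wide for EBLN2 (SD 0.23, larger than or equal to that of 92.1% of genes), CCDC18 (0.22, 90.8%), KRT37 (0.22, 90.6%) and XRCC4 (0.20, 86.8%). It was narrow for PARPBP (0.12, 34.6%) and TROAP (0.12, 35.5%).

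**Figure D4:**
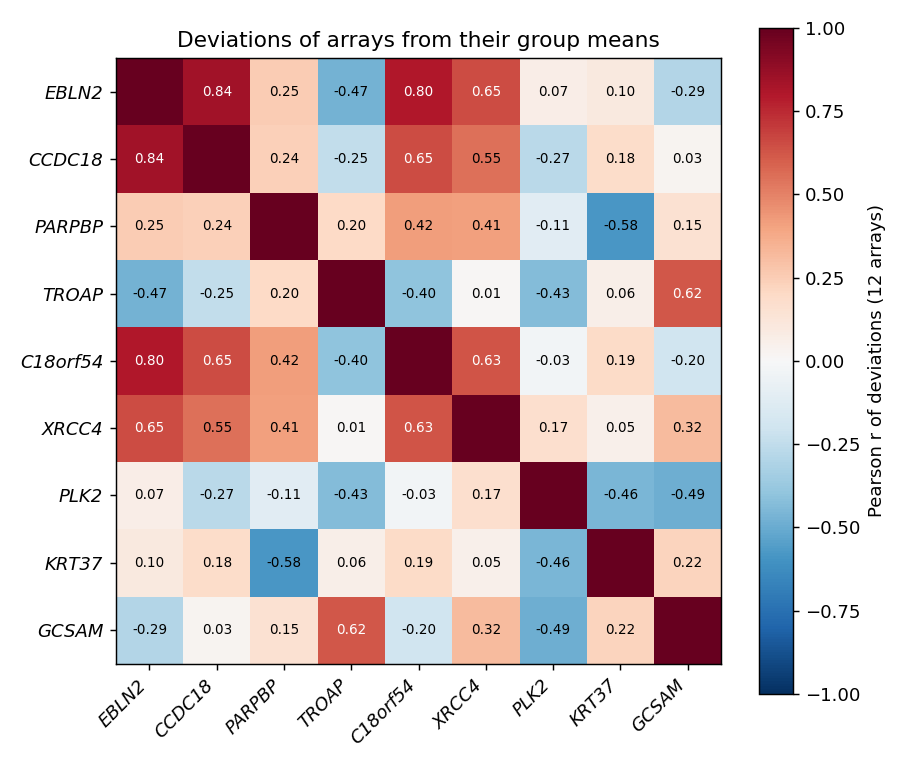
Pearson r between the deviations of 12 arrays from their group means, for each pair of the 9 genes (colour from -1 to 1). EBLN2, CCDC18, C18orf54 and XRCC4 form a block of positive values, the highest at 0.84, and PARPBP with KRT37 has the lowest at -0.58.

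Genes with the most similar pattern over the 12 arrays were taken as the 3 with the highest Pearson r for each member. This likeness includes the group differences that chose the members and is a description. PARPBP was nearest to KIF23 (0.980), a kinesin of cytokinesis, then BUB1 (0.977), a spindle checkpoint kinase, and CENPL (0.955), a centromere protein. TROAP was nearest to CDC20 (0.956), the activator of the anaphase-promoting complex, then PRR11 (0.952) and NEK2 (0.935), a centrosome kinase.

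XRCC4 was nearest to KNSTRN (0.953), a kinetochore protein gene, EME1 (0.945), a subunit of a structure-specific nuclease, and the spindle kinesin gene KIF15 (0.936). C18orf54 stood with GPSM2 (0.944), which orients the spindle, the pseudogene LOC100288637 (0.940) and PRC1 (0.924). CCDC18 had SEC22C (0.957), TCEAL6 (0.934) and KIF20B (0.931), and EBLN2 had SEC22C (0.939), KIF14 (0.939) and CCDC150 (0.921). Of these 18 places, 6 were taken by genes of the mitosis and spindle list, spread over 4 members.

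For the lower members, none of the 9 places belonged to that list. All 30 measured genes of the list had a positive average filanesib difference, whereas the lower members were chosen for a negative one. That count therefore follows largely from the choice, and nothing is read from it or from its contrast with the higher members. GCSAM was nearest to CD86 (0.949), a costimulatory molecule gene, URB1-AS1 (0.895) and GNPDA1 (0.884). PLK2 stood with MIR320C1 (0.891), CSNK1G2-AS1 (0.888) and FUZ (0.863), and KRT37 with CCBE1 (0.891), SSTR2 (0.884) and ZNF546 (0.876).

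Genes beside the members were read as well. Of 21 measured genes that overlap a member or are the nearest measured gene on either side in RefSeq order, none was called, a count that says little beside the 0.43% of all genes called, and values ran from -0.17 to 0.33. NUP37 beside PARPBP and MTF2 beside CCDC18 were the highest, at 0.33 each (limma adjusted p = 0.131 and 0.143). TMED5, whose span overlaps that of CCDC18, was at 0.24 (limma adjusted p = 0.176) and C3orf52, whose span overlaps that of GCSAM, at -0.05 (0.906). EBLN2 overlaps the span of PPP4R2, which was not analysed here, and signal from overlapping transcripts cannot be told apart from that of EBLN2 with these values. KRT38, next to KRT37 in the keratin cluster, was at -0.17 (limma adjusted p = 0.681).

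Wider pathways of the members were followed with gene lists, members left out. The list of mitosis and spindle genes had a median average filanesib difference of 0.32 over 30 measured genes, beside -0.002 over all genes, and all 30 were positive, from NUSAP1 (0.12) to HMMR (0.55). In that list 16 genes rose and none fell by the limma test, against 0.383% of all genes higher and 0.047% lower. The list was chosen with earlier results of these data known, so these counts are a description. The number of calls was 7 without Control replicate 1 or F replicate 2, and 8 without PD replicate 3 or FPD replicate 3. It was 9 without F replicate 3, PD replicate 2 or FPD replicate 1, and 10 without FPD replicate 2. Without Control replicate 2, Control replicate 3 or PD replicate 1 it was 12, and without F replicate 1 it was 15. Renormalization gave 12 calls, the replicate block 14 and the mean of a gene's rows 16. Genes above the median mean gave 17 calls, and the trend and robust prior 19. The 6 higher members, chosen for size, had 0.51 to 0.81.

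Of 4 polo-like kinase genes, PLK1, the kinase of mitotic entry, rose (0.41, limma adjusted p = 0.0307), against -0.36 in PLK2. PLK4 was at 0.34 (limma adjusted p = 0.0553), PLK5 at 0.00 and PLK3 at -0.21 (0.386). PLK4 passed without Control replicate 2 or F replicate 1 (limma adjusted p = 0.0278 and 0.0494), among genes above the median mean (0.0237) and with the trend and robust prior (0.0337). The call of PLK1 was lost in 9 of 12 fits that left out 1 array, with an adjusted p of at most 0.1; it remained without Control replicate 2, PD replicate 1 or FPD replicate 3. Of 25 listed p53 target genes, 13 had a row with a gene name, and CDKN1A and MDM2 were not among them. None of these 13 passed the test (median 0.04), from SESN1 (-0.17) to SPATA18 (0.14).

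Of 16 centriolar satellite genes around CCDC18, 1 rose, CEP152, a centriole duplication factor (0.40, limma adjusted p = 0.0425). Positive values were found in 14 of the 16, and the median was 0.11 with MIB1 (-0.09) the lowest. The call of CEP152 was lost in 9 of 12 fits without 1 array (adjusted p at most 0.132) and with the replicate block (0.0587), and remained without Control replicate 3, F replicate 1 or PD replicate 1. Around PARPBP, 11 of 18 listed homologous recombination genes had a row with a gene name, and 9 of the 11 were positive. None of them passed (median 0.12), with XRCC2 (0.39, limma adjusted p = 0.1) the highest. PARP1 and PCNA (-0.07 each) held the only negative values. They are not homologous recombination genes in the strict sense, although the list included them. XRCC2 passed without FPD replicate 2 (limma adjusted p = 0.0267) and among genes above the median mean (0.0423). Of 13 genes of non-homologous end joining listed besides XRCC4, only 4 had a row with a gene name. None of these passed, with DCLRE1C at 0.18, XRCC6 at 0.05, XRCC5 at -0.02 and APLF at -0.03.

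Among 9 other type I hair keratin genes none passed (median -0.10), from KRT39 (-0.18) to KRT36 (0.15), and their mean levels ran from 3.15 to 5.85 (median 3.93). Of 14 germinal centre B cell genes listed besides GCSAM, 6 had a row with a gene name. None of these passed (median -0.05), from ELL3 (-0.16) to MYBL1 (0.32, limma adjusted p = 0.212). EBLN1, the other bornavirus-like gene measured, was at 0.02 with a mean level of 2.79. For the lists with no call, a value under the threshold does not show that no gene changed.

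**Figure D5:**
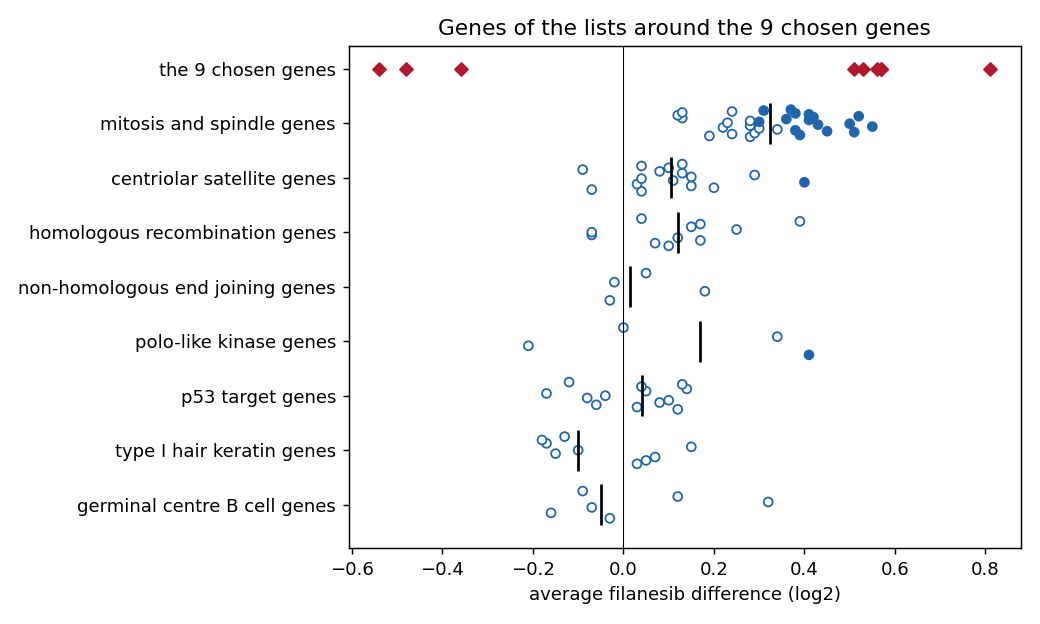
Average filanesib difference (log2, horizontal axis) of the 9 chosen genes (red diamonds) and of the genes of 8 lists (circles, filled where the limma test was passed), with list medians as vertical lines. The mitosis and spindle genes lie between 0.12 and 0.55, and the medians of the other 7 lists lie between -0.10 and 0.17.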

How the data were processed

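The authors deposited log2 expression values, for which the submitters' processing notes name RMA and Affymetrix Expression Console. RMA subtracts background, brings all arrays to the same distribution and combines probes into 1 log2 value, so low signals are compressed. Software versions, genome build and scan dates are not given in the sources used here. Gene names came from the platform annotation, which gave no gene symbol for 37519 of the 53617 rows. Listed genes without a named row were not analysed, and this does not show that the array lacks them. For a gene with several rows the row with the highest mean was used. RefSeq of GRCh38.p14 supplied current names, gene order and promoter sequences.

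With limma 3.58.1 (R 4.3.3), 1 model with a mean for each of the 4 groups was fitted to the 12 arrays (lmFit, eBayes, 8 residual degrees of freedom). Tests were two-sided and adjusted by Benjamini-Hochberg over all 14884 genes, with an adjusted p under 0.05 called a change. The code was tested on simulated data. Alternatives were renormalization, the mean of a gene's rows, genes above the median mean, a replicate block, another prior and leaving out each array. The members, the gene lists and the motifs were chosen with earlier results of these data known. Genes named beside the members are the 3 most alike in pattern, the nearest measured neighbours, those overlapping a member, those ranked around the members and the extremes of each list.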

Additional observations from a re-analysis of the deposited data

How the results depend on the processing

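With 3 arrays per group and no detection calls, EBLN2, PLK2 and KRT37, all below the median gene mean, could not be separated from background, and the setting of genes above the median mean left these 3 out. The number of genes called for the average filanesib difference was 64 and lay between 24 and 64 when 1 array was left out, being 25 without Control replicate 1, 26 without F replicate 2, 30 without F replicate 3, 32 without PD replicate 2, 24 without PD replicate 3, 33 without FPD replicate 1, 37 without FPD replicate 2 and 25 without FPD replicate 3. The cause was not tested. The 9 genes' average filanesib differences kept their direction in all 150 recomputed values. Leaving out 1 of 3 arrays cannot move such an average by as much as the spread between arrays. Several other settings leave it unchanged by construction, so nothing is read from that count. The count of members called for pomalidomide plus dexamethasone was 3 in all 5 other settings, the replicate block included, and 2 to 3 with 1 array left out; that of all genes was 3151 to 3595, against 3504 as reported. No departure from additivity was called for a member in any fit.

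Values near 0 changed sign when an array was left out. For pomalidomide plus dexamethasone the values ran from -0.10 to 0.087 in EBLN2, from -0.014 to 0.082 in PLK2 and from -0.038 to 0.11 in KRT37. For the departure from additivity they ran from -0.11 to 0.042 in TROAP and from -0.022 to 0.23 in XRCC4. None of these passed the test in any fit.

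Replicate numbers gave no pairing common to all groups. Deviations of same-numbered arrays correlated at -0.256 to 0.158 over 18 pairs, and those of other arrays at -0.203 to 0.234. Between F and FPD, same-numbered arrays had r of 0.083 to 0.124 and the others -0.085 to -0.022. Between Control and PD, same-numbered arrays had -0.256 to -0.006 and the others -0.163 to 0.234. Same-numbered arrays of Control and F had 0.018 to 0.158, and the others -0.197 to 0.108. Those of Control and FPD had -0.039 to 0.127, and the others -0.203 to 0.118. For F and PD the ranges were -0.12 to 0.015 and -0.101 to 0.137. For PD and FPD they were -0.058 to 0.02 and -0.074 to 0.062. Pairing within some of the groups was not tested. With the replicate number as a block, 3502 genes were called for pomalidomide plus dexamethasone, and the same 3 members. That fit joins all 4 groups by number, so it does not address a pairing of some of them.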
